A study of Mus musculus with 3 samples.

Results

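Macrophages and dendritic cells are the mononuclear phagocytes of tissues, and the 33 genes described here mark them in mouse. The members were chosen by symbol: genes shared by all leukocytes or all myeloid cells, genes typical of tissue macrophages, and genes of dendritic cells, leaving out integrins, chemokine receptors and MHC genes. All 33 were found among the 24091 genes of the deposited tables. The libraries were made from total RNA of cells of the large intestine of C57BL/6 mice that had been sorted as lymphatic endothelium on CD31, podoplanin and LYVE1. They form 1 group of 3 libraries, called replicates 1, 2 and 3 here, and the labels give no treatment, age or sex for it. The names of the deposited tables hold the word Water, which the labels do not explain. No label says whether separate animals were used, so the spread between the 3 libraries may be technical. With 1 group there was no contrast between conditions and no test between groups. Values are TPM, a level per transcript length and library, and means are given ± SD (n = 3).

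Tissue macrophages live on signals through the receptor CSF1R, whose ligands are CSF1 and IL-34, and their identity rests on the transcription factor PU.1. They engulf dying cells and microbes, secrete C1q, the recognition part of complement, and sense antibodies and lipids through receptors that signal by ITAM adaptors. The intestinal wall holds a large macrophage population that is renewed in part from blood monocytes, and some macrophages near vessels carry LYVE1, the hyaluronan receptor that was also used in this sort. Dendritic cells depend on the receptor FLT3 instead and take up antigen to carry it through lymphatic vessels to lymph nodes.

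Transcripts of nearly all these genes were present, mostly at low to moderate level. Of the 33 members, 26 reached a TPM of 1 in all 3 libraries, against 53.4% of all genes of the table. Timd4 and Flt3 stayed below 1 in all 3, and Fcgr1, Trem2, Cd163, Siglec1 and Cd86 lay on both sides of it. The median member stood at 7.21, 5.24 and 14.3 in replicates 1, 2 and 3 (mean 8.92 ± 4.76), and the median of all genes at 2.02, 2.44 and 2.77. Together the members took 0.0863%, 0.0682% and 0.151% of all TPM. Levels spread over a wide range, from 0.130 ± 0.111 for Flt3 to 283 ± 131 for Apoe.

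One pattern ran through the members: replicate 3 was the high library and replicate 2 mostly the low one. Replicate 2 lay below both other libraries for 25 of the 33, against 17.4% of the 19067 genes above 0 in any library. The highest value lay in replicate 3 for 29 of the 33 members, against 42.6% of these genes. Replicate 2 held the highest value of 1 member, Zbtb46, against 39.3% of these genes (41.7% of those of mean TPM 1 or more). The full order of replicate 3 first, replicate 1 next and replicate 2 last was shown by 23 of the 33, against 11.0% of genes. In 17 of the 33, replicate 3 was more than 2 times as high as each of the other libraries, against 8.12% of genes. Among the 29 members of mean TPM 1 or more the counts were 25 highest in replicate 3 (41.3% of such genes), 22 in the full order (9.51%) and 13 over 2 times both others (2.65%). On the log2(TPM + 1) scale, where differences of low genes are understated, the median difference of replicate 3 from the mean of the other libraries was 1.07 over these 29 members and 0.10 over all genes of that level. Fewer cells of a type and less RNA per cell cannot be told apart in such pooled RNA.

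**Figure D1:**
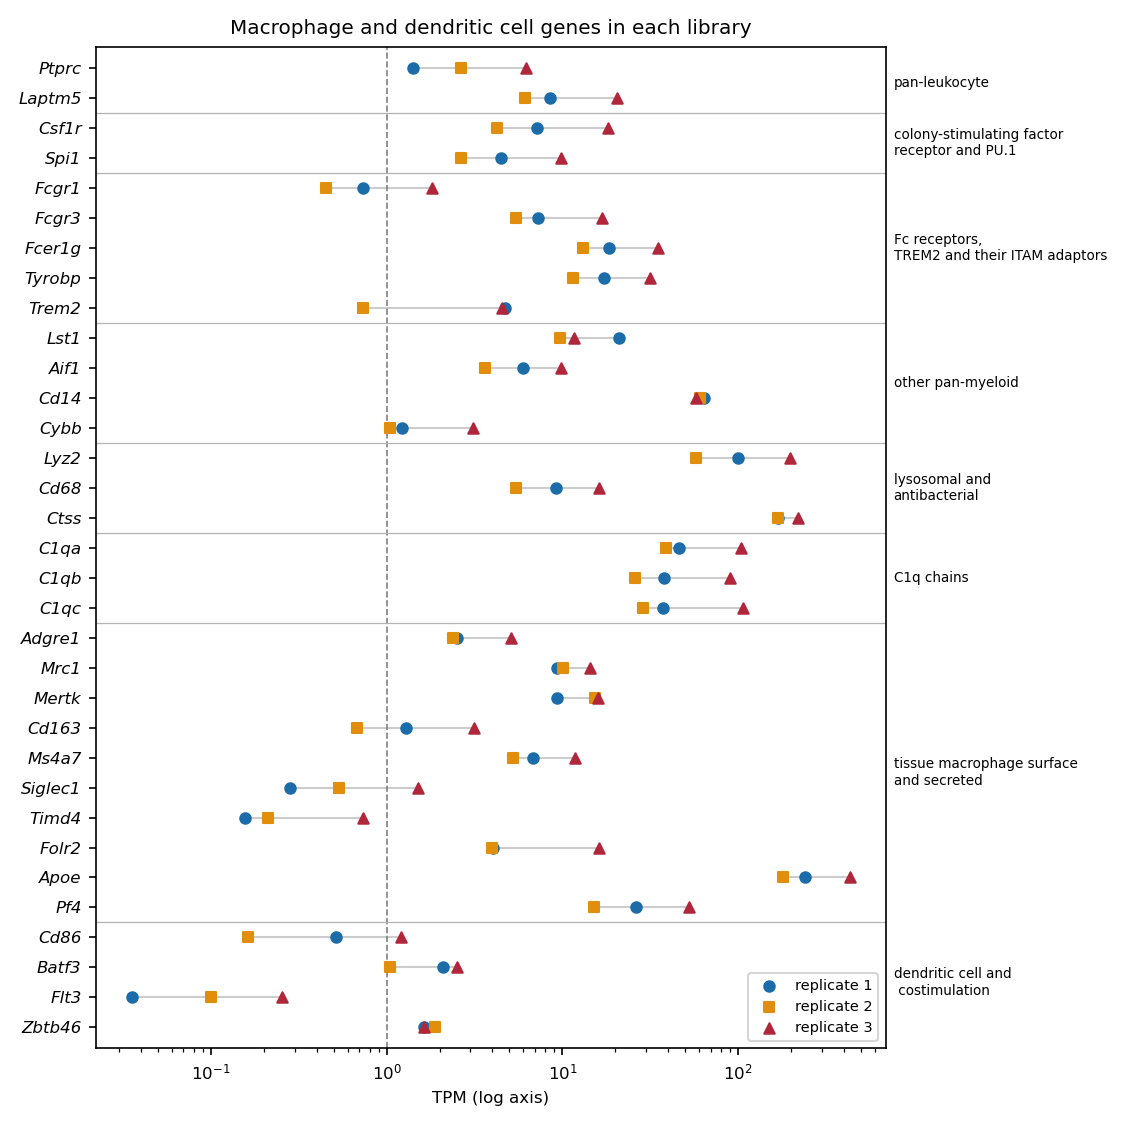
TPM (log axis) of each of the 33 genes in the 3 libraries, grouped by role, with a grey line from the lowest to the highest library and a dashed line at a TPM of 1. The triangle of replicate 3 is the rightmost symbol in 29 of the 33 rows, and Trem2, Lst1, Cd14 and Zbtb46 are the exceptions.

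Genes of other cell types also differed between the same libraries. All 8 fibroblast genes were highest in replicate 3 and in the same full order, and all 8 lay over 2 times both other libraries there. Their summed TPM was 189, 130 and 477 in replicates 1, 2 and 3. The 8 smooth muscle and pericyte genes (sums 231, 185 and 411) were also all highest in replicate 3, as were all 9 lymphocyte genes (sums 9.42, 9.78 and 29.5). The 4 plasma cell genes, mostly Jchain, summed to 60.0, 134 and 177, and the 6 enteric glia and neuron genes to 9.54, 5.36 and 11.5. The 10 blood endothelial genes were divided (sums 792, 714 and 700.0). Of these, Plvap (88.2, 53.4 and 178), Vwf (8.20, 5.22 and 18.7) and Ackr1 (5.85, 1.45 and 14.98) showed the members' full order. With Flt1 (2.63, 2.67 and 11.98) they were the 4 that lay over 2 times both other libraries in replicate 3. Another 5 of the 10 were lowest in replicate 3, among them Gpihbp1 (193, 176 and 88.9) and Emcn (156, 146 and 85.7). None of the 11 lymphatic identity genes was highest there, and 10 were lowest there (sums 1692, 1771 and 984). The epithelial list, far the most abundant, varied little by comparison (sums 13874, 14812 and 15754), and 5 of its 10 genes were highest in replicate 3. The 8 platelet genes other than Pf4 summed to 4.56, 6.00 and 6.00, and the 10 granulocyte and mast cell genes to 5.81, 9.62 and 9.77. The part of these other cells in the members' pattern was not tested.

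**Figure D2:**
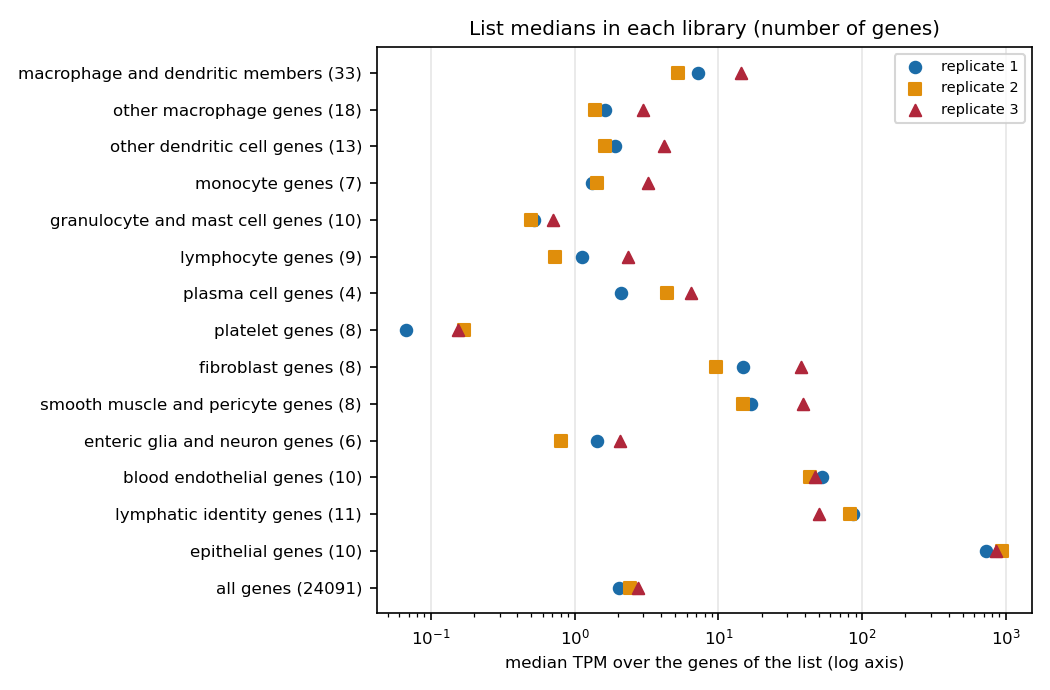
Median TPM (log axis) over the genes of each list in the 3 libraries, with the number of genes in brackets. For the members the medians are 7.21, 5.24 and 14.3 in replicates 1, 2 and 3. The fibroblast, smooth muscle and pericyte, other macrophage and other dendritic cell lists share this order. So do the medians of the granulocyte and mast cell, lymphocyte, and enteric glia and neuron lists, while the lymphatic identity list is lowest in replicate 3. Gene by gene, the full order holds for 8 of 8 fibroblast and 7 of 8 smooth muscle and pericyte genes. It holds for 5 of 18 other macrophage, 4 of 13 other dendritic cell, 3 of 9 lymphocyte and 2 of 6 enteric glia and neuron genes. It holds for 0 of 10 granulocyte and mast cell genes, of which 6 are highest in replicate 2.

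The genes that mark any leukocyte came first. Ptprc, which encodes the surface phosphatase CD45 of all blood-derived immune cells, stood at 1.41, 2.67 and 6.22 in replicates 1, 2 and 3 (mean 3.43 ± 2.49). Here replicate 1 and not replicate 2 was lowest, and replicate 3 was 4.40-fold above replicate 1. Laptm5, a lysosomal membrane protein of immune cells, was higher at 8.54, 6.16 and 20.3 (mean 11.7 ± 7.60).

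The receptor and the transcription factor on which macrophages depend were measured next. Csf1r was found at 7.21, 4.23 and 18.2 in replicates 1, 2 and 3 (mean 9.88 ± 7.35). Spi1, the gene of PU.1 (Entrez 20375, mm10 chromosome 2, 91082374 to 91115759), stood at 4.50, 2.65 and 9.79 (mean 5.65 ± 3.70). For both, replicate 3 was more than 2 times as high as either other library.

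Ligands of these and related receptors were present in the same RNA and were more even. Csf1 was measured at 5.91, 6.10 and 7.15 in replicates 1, 2 and 3 (mean 6.39 ± 0.667). Il34, the other CSF1R ligand, was less even at 4.55, 3.92 and 9.14 (mean 5.87 ± 2.85). Flt3l, which encodes the ligand of FLT3, averaged 16.2 ± 3.08 and was highest in replicate 1. Csf2, the gene of GM-CSF, was listed at 0 in all 3 libraries, whereas its receptor chain Csf2ra averaged 20.5 ± 2.47. Kitl, the ligand of KIT, averaged 29.4 ± 6.74, and Kit itself 19.2 ± 2.77. Of the 7 ligand genes above 0, 2 were highest in replicate 3, and none of the 7, all of mean TPM 1 or more, was called variable by the rule given below.

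The receptors that bind antibody and lipid were considered together with the adaptors that carry their signal. Fcer1g encodes the Fc receptor gamma chain, a short membrane adaptor with an ITAM that Fc receptors need at the surface, and stood at 18.5, 13.02 and 34.8 in replicates 1, 2 and 3 (mean 22.1 ± 11.3). Tyrobp, the gene of the related adaptor DAP12 used by TREM2, was found at 17.3, 11.5 and 31.3 (mean 20.02 ± 10.2). The adaptors kept almost the same proportion in every library, with a Tyrobp to Fcer1g ratio of 0.936, 0.880 and 0.901 (mean 0.906 ± 0.0284).

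The receptors themselves were lower. Fcgr3, a low-affinity IgG receptor that needs the gamma chain, stood at 7.27, 5.43 and 16.8 in replicates 1, 2 and 3 (mean 9.84 ± 6.12). Fcgr1, the high-affinity IgG receptor, was found at 0.735, 0.451 and 1.82 (mean 1.002 ± 0.722). Reads may be split between related Fc receptor genes, so single values in this family are uncertain. Among the other Fc receptor genes, the inhibitory receptor gene Fcgr2b was also highest in replicate 3 but lowest in replicate 1, with 5.97, 8.55 and 18.5 (mean 11.0 ± 6.60), and Fcgr4 averaged 2.24 ± 0.971. Fcgrt, which encodes the neonatal Fc receptor and is expressed well beyond phagocytes, was much higher and even, at 127 ± 15.2.

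Trem2, a lipid-sensing receptor of macrophages that signals through DAP12, departed from its adaptor. Its values were 4.74, 0.738 and 4.55 in replicates 1, 2 and 3 (mean 3.34 ± 2.26). Replicates 1 and 3 were alike and replicate 2 lay 6.16-fold below replicate 3, the steepest gap between these 2 libraries among the 29 members of mean TPM 1 or more. Tyrobp differed 2.73-fold between the same libraries.

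Enzymes and kinases downstream of ITAM adaptors were more even. Of the 9 genes listed, 8 reached a TPM of 1 in all 3 libraries, and 7 were highest in replicate 3. Lyn (29.1 ± 2.94), Ptpn6 (20.1 ± 4.40) and Syk (15.3 ± 4.64) were the most abundant, and the lowest was Btk (1.18 ± 0.699). None of the 9 was called variable.

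Among the other genes shared by myeloid cells, Aif1, the gene of the actin-binding protein IBA1, stood at 6.00, 3.62 and 9.85 in replicates 1, 2 and 3 (mean 6.49 ± 3.14). Cybb, the catalytic subunit of the phagocyte NADPH oxidase, was low at 1.23, 1.04 and 3.08 (mean 1.78 ± 1.13). These followed the common order, whereas Lst1 and Cd14 did not.

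Cd14, the co-receptor for bacterial lipopolysaccharide, was found at 63.7, 60.8 and 57.5 in replicates 1, 2 and 3 (mean 60.7 ± 3.09). It was the only member lowest in replicate 3, and its coefficient of variation of 5.10% was the smallest of the 33. Lst1, a small leukocyte membrane protein, was highest in replicate 1, at 21.0 against 9.64 and 11.6 (mean 14.1 ± 6.06). For comparison, replicate 3 stood to replicate 1 at 0.903 for Cd14, 0.555 for Lst1 and 4.40 for the leukocyte gene Ptprc.

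Partners of Cybb in the oxidase divided by level. Cyba, the other membrane subunit, averaged 264 ± 11.0 with similar values in all libraries. Ncf1, Ncf4 and Rac2, which are more restricted to blood cells, averaged 2.98 ± 2.17, 4.25 ± 1.97 and 4.95 ± 2.19, and each was highest in replicate 3. None of these 4 fell below a TPM of 1 in any library.

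Lysosomal and antibacterial genes were among the most abundant members. Lyz2, the lysozyme of macrophages and other myeloid cells (Entrez 17105, mm10 chromosome 10, 117277541 to 117282272), stood at 99.2, 57.8 and 196.9 in replicates 1, 2 and 3 (mean 118 ± 71.4). Its neighbour and close relative Lyz1, known as the Paneth cell lysozyme, was found at 14.4, 7.57 and 24.0 (mean 15.3 ± 8.25). The Lyz2 to Lyz1 ratio was 6.87, 7.64 and 8.20 (mean 7.57 ± 0.668). Reads may be split between these similar genes, so both values are uncertain.

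Cd68, a lysosomal glycoprotein used as a macrophage marker, stood at 9.22, 5.42 and 16.2 in replicates 1, 2 and 3 (mean 10.3 ± 5.47). Ctss, the protease cathepsin S that trims the invariant chain of MHC class II, was far higher at 168, 167 and 219 (mean 185 ± 29.4). Replicate 3 exceeded replicate 2 only 1.31-fold for Ctss but 2.99-fold for Cd68 and 3.40-fold for Lyz2.

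The 3 chains of C1q, each needed to build the molecule, were all highest in replicate 3 and lowest in replicate 2. C1qa stood at 45.8, 39.0 and 103.6 in replicates 1, 2 and 3 (mean 62.8 ± 35.5). C1qb was found at 37.8, 25.998 and 89.6 (mean 51.1 ± 33.8), and C1qc at 37.2, 28.5 and 106 (mean 57.3 ± 42.5). For each chain, replicate 3 was over 2 times as high as either other library. The genes lie next to each other on mm10 chromosome 4: C1qb (Entrez 12260) at 136880126 to 136886200, C1qc (Entrez 12262) at 136889801 to 136892936 and C1qa (Entrez 12259) at 136895916 to 136898844. Levels per length were close to equal, with a C1qa to C1qb ratio of 1.21, 1.499 and 1.16 (mean 1.29 ± 0.185). The C1qc to C1qb ratio was 0.983, 1.10 and 1.18 (mean 1.09 ± 0.101).

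Because PU.1 is itself a member and the C1q genes were high in the same library, promoter windows were read for short ETS-type sequences of the kind PU.1 binds. The windows run from 250 bases before to 50 after each start site in RefSeq (GRCm38.p6, the assembly of mm10). A window was available for 24 of the 33 members. C1qa had none, nor did Csf1r, Spi1, Tyrobp, Lst1, Cd14, Adgre1, Siglec1 and Cd86, so the C1q set was read only in part. Windows are shown for 4 genes with a match: C1qb, C1qc and Pf4, whose levels differed widely between libraries, and Ctss, whose level differed less. Capitals mark the 7 bases AGGAAGT on either strand, which here read ACTTCCT.
C1qb promoter, chr4:136886151-136886450, minus strand: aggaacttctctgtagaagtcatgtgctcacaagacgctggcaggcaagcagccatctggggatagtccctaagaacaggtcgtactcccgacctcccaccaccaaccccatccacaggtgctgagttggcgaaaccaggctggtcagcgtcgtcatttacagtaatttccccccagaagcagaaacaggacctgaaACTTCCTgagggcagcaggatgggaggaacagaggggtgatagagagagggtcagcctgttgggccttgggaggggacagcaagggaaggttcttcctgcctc
C1qc promoter, chr4:136892865-136893164, minus strand: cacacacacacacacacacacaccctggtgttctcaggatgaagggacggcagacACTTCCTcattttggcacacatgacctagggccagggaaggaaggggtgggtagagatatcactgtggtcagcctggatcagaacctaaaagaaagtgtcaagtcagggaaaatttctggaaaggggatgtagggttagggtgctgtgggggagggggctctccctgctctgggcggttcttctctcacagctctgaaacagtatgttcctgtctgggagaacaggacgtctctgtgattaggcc
Pf4 promoter, chr5:90772185-90772484, plus strand: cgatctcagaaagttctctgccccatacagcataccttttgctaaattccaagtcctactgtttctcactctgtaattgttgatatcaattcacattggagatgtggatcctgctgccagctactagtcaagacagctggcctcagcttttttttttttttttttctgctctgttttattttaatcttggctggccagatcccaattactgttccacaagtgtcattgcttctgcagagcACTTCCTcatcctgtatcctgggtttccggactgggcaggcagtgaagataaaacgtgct
Ctss promoter, chr3:95526536-95526835, plus strand: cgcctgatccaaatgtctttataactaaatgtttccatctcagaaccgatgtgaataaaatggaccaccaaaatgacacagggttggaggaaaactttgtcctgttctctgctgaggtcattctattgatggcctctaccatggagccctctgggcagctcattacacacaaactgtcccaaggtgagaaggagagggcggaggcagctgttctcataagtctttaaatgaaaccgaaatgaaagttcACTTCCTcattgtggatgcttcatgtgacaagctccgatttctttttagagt
These windows were taken from the members that hold the sequence, so a match in each follows from the choice. AGGAAGT on either strand was found for 9 of the 24 members, which is 37.5%, and for 10.7% of the 27025 genes with a window. Those members were Ptprc, Fcgr1, Lyz2, Ctss, C1qb, C1qc, Mrc1, Folr2 and Pf4. The other 15 windows, among them those of Laptm5, Cd68 and Apoe, had no match. Of the 11 members with a window that were called variable by the rule given below, 5 held it, as did 4 of the 11 that were tested and not called. The shorter GAGGAA, which shares bases with it, was found for 16 of 24 (66.7%) against 31.3% of genes, and GGAAGT for 15 (62.5%) against 26.5%. The longer GAGGAAGT was found for 3 (12.5%) against 3.69%, and the same with A before and G after it for 0 against 0.507%. TATAAA, which is no ETS sequence, was found for 4 (16.7%) against 15.7% of genes. These 6 sequences were chosen after the expression values were seen and without a fixed rule, and a match is a description of the window and not a bound site.

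Complement genes outside C1q were lower. The proteases that C1q activates, C1ra and C1s1, averaged 13.9 ± 4.16 and 13.6 ± 8.63. C3, the central component, averaged 12.3 ± 5.30, with C4b at 5.44 ± 3.52 and C2 at 5.17 ± 1.02. The receptor genes of myeloid cells C5ar1 and C3ar1 stood at 2.17 ± 1.68 and 1.17 ± 0.692. Of these 7 genes, 6 were highest in replicate 3 and 5 showed the members' full order. C2 was the exception, with its highest value in replicate 2.

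Of the genes typical of tissue macrophages, all 10 were highest in replicate 3, but by very different amounts. Folr2, the folate receptor of resident macrophages, stood at 4.03, 3.97 and 16.0 in replicates 1, 2 and 3 (mean 8.01 ± 6.95). Replicates 1 and 2 were nearly equal and replicate 3 was 3.98-fold and 4.04-fold above them. Its neighbour Folr1, an epithelial folate receptor, averaged 0.457 ± 0.256. On the log2(TPM + 1) scale, Folr2 had the largest difference of replicate 3 from the other libraries among the members, 1.77.

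Other surface proteins of macrophages were low. Adgre1, which encodes the marker F4/80, stood at 2.53, 2.38 and 5.13 in replicates 1, 2 and 3 (mean 3.35 ± 1.55). Cd163, the haemoglobin scavenger receptor, was found at 1.29, 0.681 and 3.13 (mean 1.70 ± 1.27). Ms4a7, a membrane protein of mature macrophages, was higher at 6.82, 5.24 and 11.7 (mean 7.93 ± 3.38).

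The lowest macrophage genes rested on few fragments. Siglec1, the sialic acid receptor CD169, stood at 0.281, 0.536 and 1.51 in replicates 1, 2 and 3 (mean 0.776 ± 0.649). Timd4, a phosphatidylserine receptor of long-lived resident macrophages, was found at 0.156, 0.211 and 0.730 (mean 0.366 ± 0.317). Depth is not part of TPM, but most small values among 2260 genes with 1 transcript lay near whole fragments at a spacing fitted to them. By this spacing, 1 TPM corresponded to about 32.3, 28.4 and 26.2 fragments per 1000 bases in the 3 libraries. By this estimate Timd4 rested on 10, 12 and 38 fragments and Siglec1 on 56, 94 and 245, taking the longest annotated transcript.

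Mrc1 and Mertk varied less than their group. Mrc1, the mannose receptor CD206 (Entrez 17533, mm10 chromosome 2, 14229414 to 14332023), stood at 9.31, 10.03 and 14.3 in replicates 1, 2 and 3 (mean 11.2 ± 2.69), and is known from lymphatic endothelium as well as macrophages. Mertk, the receptor by which macrophages recognise dying cells, was found at 9.35, 15.3 and 15.9 (mean 13.5 ± 3.64). In both, replicate 1 was lowest, and replicate 3 exceeded replicate 2 only 1.43-fold for Mrc1 and 1.04-fold for Mertk. Lyve1, a sort marker that some macrophages share, went the other way at 545, 611 and 314 (mean 490 ± 156). The Mrc1 to Lyve1 ratio was 0.0171, 0.0164 and 0.0456 (mean 0.0264 ± 0.0167), nearly equal in replicates 1 and 2 and highest in replicate 3.

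The bridging proteins through which MERTK and its relatives recognise dying cells were abundant. Gas6 averaged 383 ± 24.4 and Pros1 50.8 ± 8.86, and neither was highest in replicate 3. Mfge8, a bridging protein for integrins, averaged 81.1 ± 7.59. Of the relatives of MERTK, Axl stood at 5.29, 3.04 and 12.4 in replicates 1, 2 and 3 (mean 6.91 ± 4.89) and Tyro3 averaged 5.41 ± 0.702.

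The secreted members Apoe and Pf4 were both abundant. Apoe, the lipid carrier apolipoprotein E (Entrez 11816, mm10 chromosome 7, 19696244 to 19701310), stood at 239, 179 and 431 in replicates 1, 2 and 3. It was the most abundant member in every library and lay at percentile 95.9 of the genes at TPM 1 or more, on average over libraries. Pf4, a chemokine stored in platelets and also made by some tissue macrophages, was found at 26.3, 15.1 and 52.1 (mean 31.2 ± 19.0). Ppbp, the neighbouring platelet chemokine gene, averaged 0.178 ± 0.0944. Of the other platelet genes, Gp1bb (4.01 ± 0.548) and Itga2b (0.916 ± 0.257) were the highest, and Gp9, Gp6, Clec1b and Treml1 each averaged 0.104 or less, with the lowest mean, 0.0132, in Clec1b.

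As a group, the dendritic cell genes were the lowest members. Batf3, a transcription factor of the dendritic cells that cross-present antigen, stood at 2.08, 1.05 and 2.52 in replicates 1, 2 and 3 (mean 1.88 ± 0.755), and its relative Batf averaged 1.45 ± 0.467. Zbtb46, a transcription factor of classical dendritic cells that endothelium also expresses, was even at 1.63, 1.89 and 1.63 (mean 1.71 ± 0.154). Zbtb46 overlaps Zgpat and Lime1 in the annotation, and without stated strand the reads of overlapping genes cannot be told apart.

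The remaining members of this group were below 1 in most libraries. Cd86, the costimulatory ligand of activated dendritic cells and macrophages, stood at 0.514, 0.164 and 1.20 in replicates 1, 2 and 3 (mean 0.626 ± 0.528), and its relative Cd80 averaged 0.291 ± 0.0935. Flt3 was found at 0.0357, 0.101 and 0.253, an estimated 4, 11 and 25 fragments. Within each library the 10 tissue macrophage members exceeded the 4 dendritic cell members by 1.91, 2.004 and 2.54 in mean log2(TPM + 1) (2.15 ± 0.34). This difference between gene lists compares levels of chosen markers and does not give numbers of cells.

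Dendritic cell genes outside the members were mixed. Sirpa (32.6 ± 6.25), Fscn1 (19.8 ± 2.98) and Naaa (18.5 ± 1.81) were the highest of the 13, and all are also expressed by other cells. Clec9a, the receptor for dead cell actin on cross-presenting dendritic cells, was even at 1.54, 1.62 and 1.53 in replicates 1, 2 and 3. Clec4a4 was the lowest at 0.0114 ± 0.0198. Of the 13 genes, 9 were highest in replicate 3.

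Further macrophage genes outside the members were examined in the same way. Of 18 such genes, 15 were highest in replicate 3 and 10 reached a TPM of 1 in all libraries. Stab1 (103 ± 28.7) and Slco2b1 (26.8 ± 3.81) were the most abundant and, with Marco, the only ones not highest in replicate 3. Stab1, a scavenger receptor that lymphatic endothelium also carries, stood at 131, 106 and 73.6. Coro1a, a leukocyte actin regulator, stood at 6.74, 7.49 and 22.5. Marco (0.0372 ± 0.0348) and Cd5l (0.0132 ± 0.0115), genes of other macrophage populations, were the lowest.

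Monocyte genes were led by Plac8 at 1199, 1117 and 1547 in replicates 1, 2 and 3, a gene that colon epithelium expresses too. Ly6c2, the classical monocyte marker, stood at 4.91, 2.83 and 10.4 (mean 6.06 ± 3.94), in the members' order. Of the 7 monocyte genes, 6 were highest in replicate 3. Clec4e was the lowest at 0.0422 ± 0.0486.

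Transcription factors of these cells other than the members Spi1, Batf3 and Zbtb46 were mixed. Of the 11 listed, 6 were highest in replicate 3, and Cebpb (134 ± 19.7), Cebpa (50.9 ± 10.03), Irf8 (49.9 ± 8.74), Relb (40.2 ± 0.30), Nr1h3 (38.2 ± 4.08) and Id2 (24.5 ± 3.48) were above 10. The lowest was Irf4 at 0.610 ± 0.472. None of the 9 with a mean TPM of 1 or more was called variable.

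**Figure D3:**
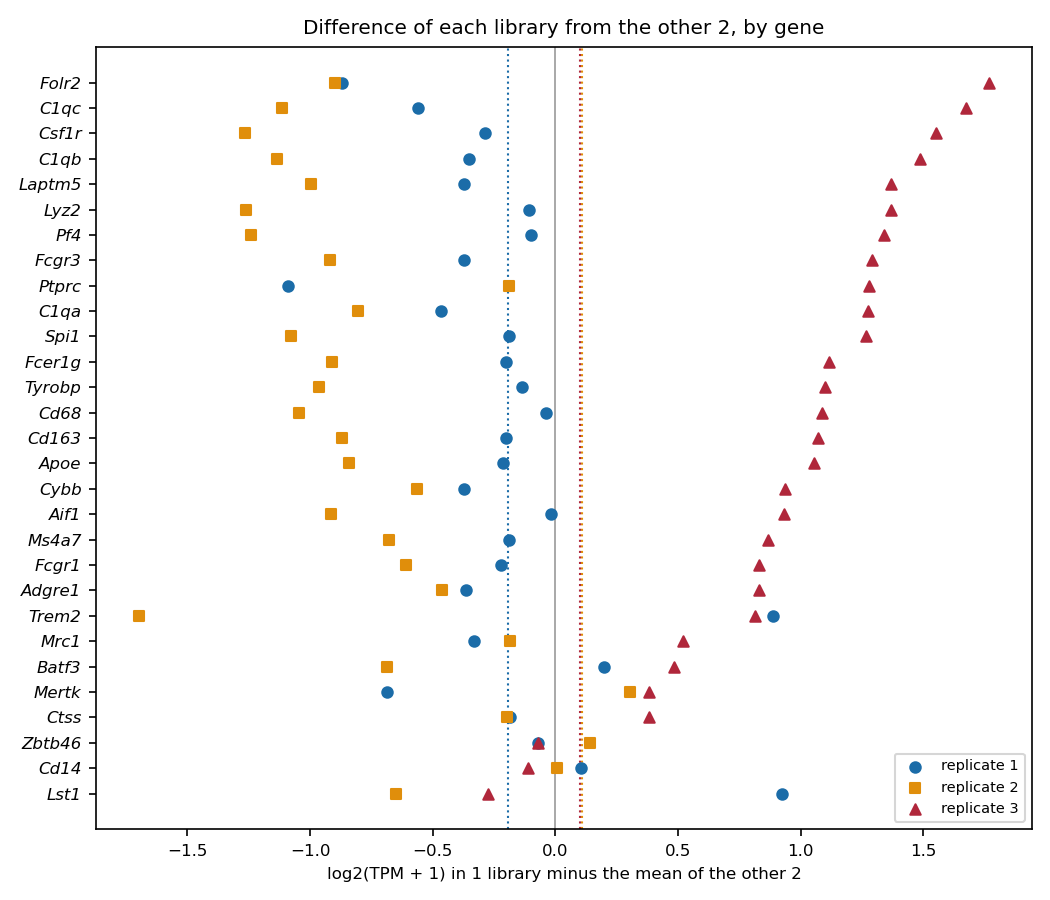
For the 29 members of mean TPM 1 or more, log2(TPM + 1) of each library minus the mean of the other libraries; dotted lines mark the same quantity for the median of all genes of that level (replicate 1 at -0.19, replicate 2 at 0.11, replicate 3 at 0.10). Folr2 is at the top with 1.77 for replicate 3 and Lst1 at the bottom with -0.27.

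The spread of each gene was also set against genes of like level. A gene was called variable where its SD of log2(TPM + 1) over the libraries lay above percentile 95 of its bin, for 20 bins of mean expression over the 13606 genes of mean TPM 1 or more. This called 16 of the 29 members tested, against 5.0% of genes by construction. They were Laptm5, Csf1r, Spi1, Fcgr3, Fcer1g, Tyrobp, Trem2, Lst1, Lyz2, Cd68, C1qa, C1qb, C1qc, Folr2, Apoe and Pf4. Without replicate 3 the count was 5. Spi1 lay barely above the percentile of its bin (SD 0.7888 against 0.7887), and Lst1 lay close to it (0.547 against 0.538). The same rule called 7 of 8 fibroblast genes, 6 of 11 lymphatic identity genes and 1 of 10 epithelial genes. Since genes expressed in the same cells vary together, the called members are not separate observations.

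The median SD was 0.69 over the 29 members and 0.19 over all genes tested. Cd14 (0.07) and Zbtb46 (0.08) had the smallest SD among the members and Folr2 (1.02) the largest. Beside Cd14 and Zbtb46, the members Ptprc, Fcgr1, Aif1, Cybb, Ctss, Adgre1, Mrc1, Mertk, Cd163, Ms4a7 and Batf3 were tested and not called. Siglec1, Timd4, Cd86 and Flt3 averaged below 1 and were not tested.

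**Figure D4:**
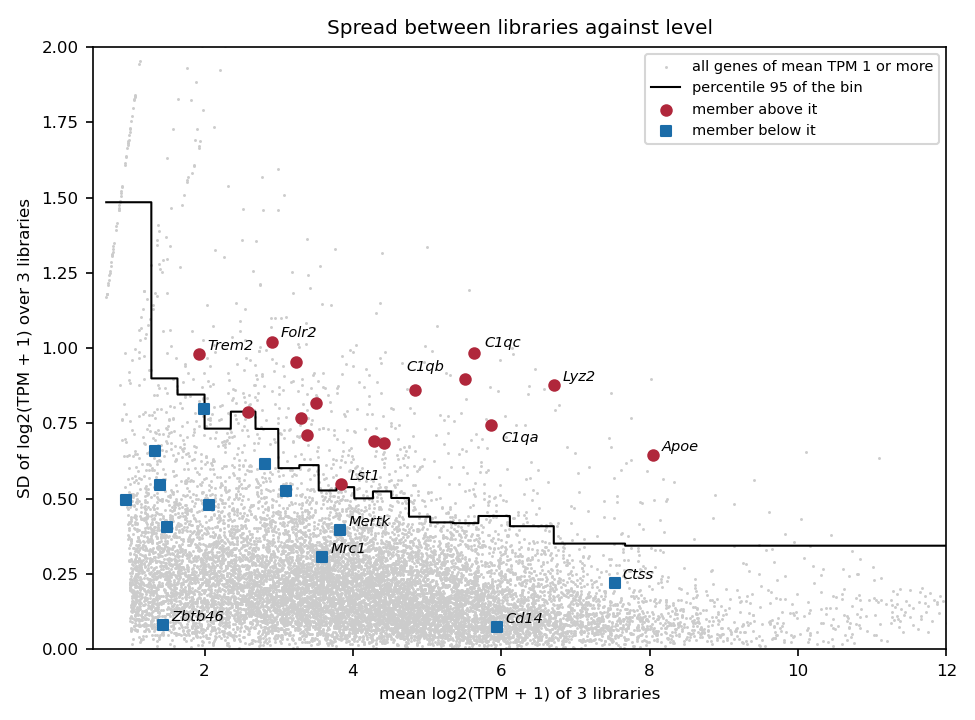
SD of log2(TPM + 1) over the 3 libraries against its mean, for all genes of mean TPM 1 or more (grey), with the percentile 95 of each bin as a black line. Of the 29 members, 16 lie above the line (red circles) and 13 below (blue squares); 25 genes above the limit of the vertical axis and 19 beyond that of the horizontal axis, none of them members, are not drawn.

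Set against genes of the vessel cells that were sorted, the members were lower in mean log2(TPM + 1) in every library. The mean log2(TPM + 1) of the 33 members minus that of the 11 lymphatic identity genes was -3.06, -3.44 and -1.74 in replicates 1, 2 and 3 (mean -2.75 ± 0.89). The gap was narrowest in replicate 3, where 29 of the 33 members were highest and 10 of the 11 lymphatic genes lowest. In summed TPM the members exceeded the lymphatic list in replicate 3 (1514 against 984). They did not in replicates 1 and 2 (863 and 681 against 1692 and 1771). These sums set 33 genes against 11 and are weighted to the most abundant genes of each list. In replicate 3 those were Apoe (431), Ctss (219) and Lyz2 (196.9) among the members. Among the lymphatic genes they were Lyve1 (314), Mmrn1 (206) and Reln (179).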

How the data were processed

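The authors deposited 1 table per library with TPM values for 24091 genes, per the file headers. Per the submitters' processing notes, mm10, Cell Ranger 6.0.1 and HTSeq were involved; how TPM was computed, the annotation and the use of strand are not given in the sources used here. The members and lists were chosen with earlier results of these data known, so no list or score over members was tested. Genes were matched by symbol; 1 listed gene, Trbc2, was not found. Every member is named, as are all ligand, complement and related genes, and in other phagocyte lists genes of mean TPM 10 or more, the highest and the lowest; other cell types are mostly given as lists, and some further genes were named after their values were seen. A few listed genes are not reported here. Values were compared as TPM or log2(TPM + 1). The rule for variable genes was tried on simulated data in which genes varied independently, so that trial does not cover genes that vary together. Of the low values used to estimate fragments, 72.3%, 78.1% and 77.4% lay within 0.15 of a whole number, where this width gives 30%. The step and a subtracted length were fitted per library to bring these same values near whole numbers. The 30% holds for a step not fitted to them, so the shares are not a test. No counting interval was computed. Alternatives were other TPM thresholds, a pseudocount of 0.1, other summaries, 2 other scalings and leaving out each replicate. Coordinates are RefSeq GRCm38.p6, 1-based. Python 3.11.15, numpy 2.4.6, pandas 2.3.3 and matplotlib 3.10.9 were used.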

Additional observations from a re-analysis of the deposited data

How the results depend on the processing

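Of 61 alternative values, 55 stayed close to the reported one, 6 moved and 0 reversed. The number of members at the TPM threshold in all libraries was 17 at a TPM of 5. With the mean in place of the median, the members' level was 30.9. The macrophage minus dendritic cell difference was 2.93 with a pseudocount of 0.1. The 1 member highest in replicate 2, Zbtb46, became 0 under median-of-ratios scaling and among genes of mean TPM 5 or more. The second setting leaves Zbtb46 out. The scaling divided replicates 1, 2 and 3 by 0.901, 1.06 and 1.06, and the count highest in replicate 1 went from 3 to 4. Leaving out 1 replicate gave 26 to 28 members at a TPM of 1, a median of 6.23 to 10.8, a macrophage minus dendritic cell difference of 1.96 to 2.27 and a members minus lymphatic difference of -3.25 to -2.40. The count of variable members ranged from 5 (without replicate 3) to 17 and the median difference of replicate 3 from 0.85 to 1.30; replicate 3 exceeded replicate 2 in 27 and replicate 1 in 26 of 29 members, a comparison added after the data were examined. Rescaling without 86 ribosomal protein genes shifted the median gene by 0.34, 0.29 and 0.27 (log2), and median-of-ratios scaling by 0.14, -0.08 and -0.08. Replicate 3 minus the others was then 1.07 and 0.97 for members and 0.07 and -0.01 for all genes, and the count of members highest in replicate 3 was 25 under both. No paired analysis was possible because the 3 libraries form 1 group. Depth limits the lowest members, Flt3 and Timd4.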
